A study of Mus musculus with 24 samples.

Results

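Chemokines are small secreted proteins that steer the movement of cells, and they are named for the spacing of their conserved cysteines as CC, CXC or CX3C ligands. Their receptors are G protein-coupled receptors on leukocytes, microglia and neurons. In the brain, CC ligands such as Ccl2 are known for drawing monocytes into injured tissue, Cxcl10 is a classic interferon-induced ligand, Cxcl12 acts through Cxcr4 in the placement of neurons and precursors, and neuronal Cx3cl1 signals to the microglial receptor Cx3cr1. The genes described here are 8 ligands (Ccl2, Ccl12, Ccl3, Ccl4, Cxcl1, Cxcl10, Cxcl12 and Cx3cl1) and 2 receptors (Cxcr4 and Ccr2). They were chosen by name, and all 10 were found by their symbols among the 53379 genes of the count table, which holds 61 listed chemokine ligands and receptors in all.

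Adult male C57/BL6N mice, bought at 8 weeks of age and kept for 4 weeks before use, received kainic acid (KA) or, as sham controls (SH), saline into the deep cortex beside the hippocampus. No group carried a transgene, and KA animals without convulsive seizures were not used by the study. Right hippocampi taken at 24 hours from 8 mice per treatment were pooled into 3 samples, of 4 mice for replicate 1 and of 2 mice for replicates 2 and 3. Flow sorting by the neuronal protein NeuN split the nuclei of a pool into NeuN+, called neurons here, and NeuN-, called glia, which gave 12 mRNA libraries in 4 groups of 3. P-values therefore measure the spread between pools, not between animals.

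Total counts ranged from 7769400 to 40364768 per library, so that 3 counts corresponded to between 0.0896 and 0.261 CPM (read counts scaled to a common library size). The sort was visible in the markers: 15 neuronal markers summed to between 5621 and 9085 CPM in neurons and between 563 and 1948 CPM in glia, and 10 microglial markers summed to between 839 and 2457 CPM in glia and between 49.0 and 117 CPM in neurons. The 2 glial libraries SH replicate 1 and KA replicate 2 were made from less RNA with more PCR cycles. The replicate 3 libraries held fewer genes with any count than replicates 1 and 2 of the same group, and reads over olfactory receptor genes, which serve as a measure of stray reads in brain, had a median of 0.0169 to 0.0843 CPM per kb of exon in replicate 3 libraries and of 0.194 to 0.487 CPM per kb in the others. This measure was chosen after the counts were seen.

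In glia, Ccl2 and Ccl12 rose 12-fold and 8.44-fold after KA, at a false discovery rate (FDR) below 0.25, the threshold of the study, in edgeR's quasi-likelihood test with Benjamini-Hochberg adjustment over 37598 genes. These were 2 of the 10 members, where 0.442% of all genes tested were called higher in KA glia. No member was called lower in KA glia, against 0.306% of all genes, and none had an unadjusted p under 0.05 in that direction or was called lower by DESeq2. In neurons, Cxcl12 fell to 0.28 of its SH level (logFC -1.84). It was the only member called in neurons by this test, where 0.0612% of all genes were called lower and 0.279% higher. Without both low-input glial libraries Ccl2 (FDR 0.0940) and Ccl12 kept their calls in glia, and Cxcl12 lost its call in neurons (FDR 0.333). The study had already reported Ccl2, Ccl12 and Cxcl10 as higher in glia and Cxcl12 as lower in neurons from the same libraries. It applied this threshold to fewer genes and analysed each cell type separately, so its FDR values and those here are not alike. LogFC values are on the log2 scale throughout.

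**Figure D1:**
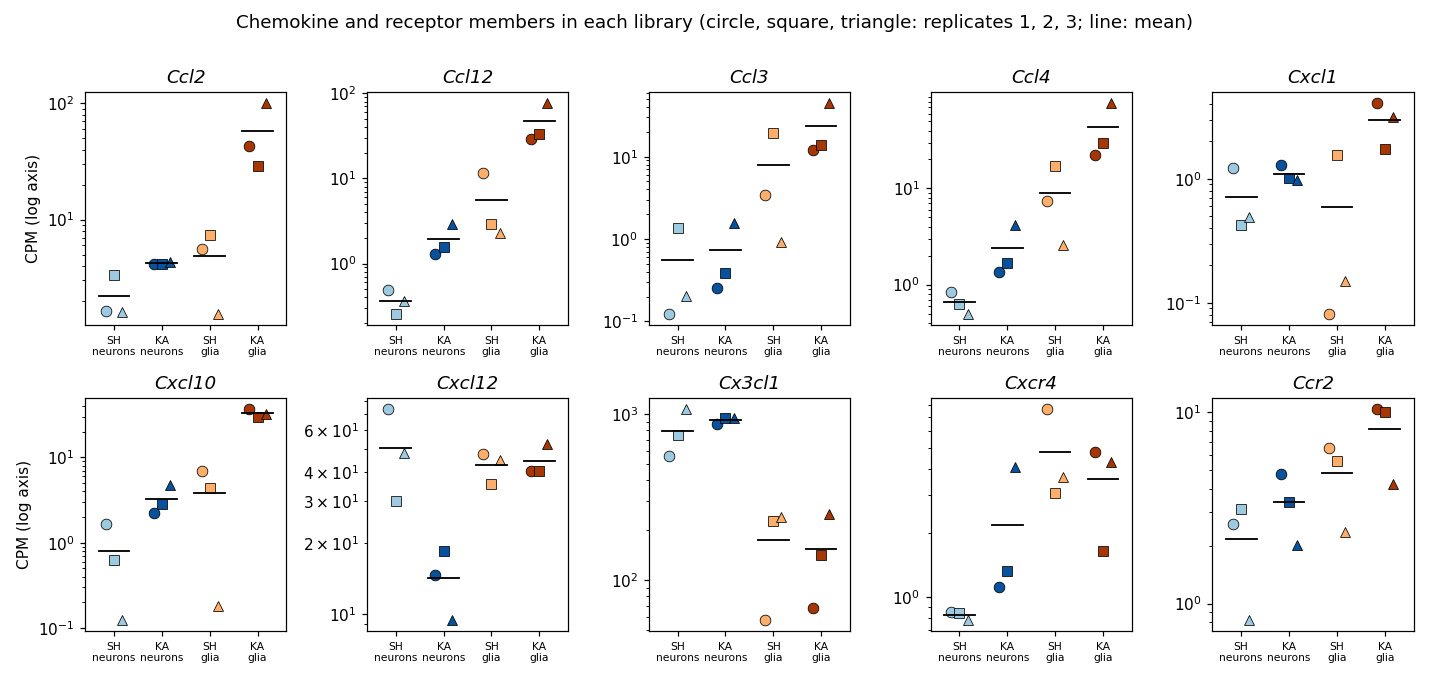
CPM of the 10 chemokine and receptor genes in each of the 12 libraries, on a log axis, with replicates 1, 2 and 3 as circle, square and triangle and the group mean as a line. Ccl2, Ccl12, Ccl4, Cxcl1 and Cxcl10 were higher in every KA glial library than in every SH glial library, and Cxcl12 was lower in every KA neuronal library than in every SH neuronal library.

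The CC ligands Ccl2 and Ccl12 lie near each other on chromosome 11 of GRCm38, at chr11:82035571-82037453 and chr11:82101845-82103400, both on the plus strand. Ccl2 (ENSMUSG00000035385), a monocyte attractant that acts on Ccr2, had 5.63, 7.40 and 1.52 CPM in SH glia replicates 1, 2 and 3. In KA glia it had 42.9, 29.2 and 101 CPM. The groups did not overlap, and the lowest KA library stood well above the highest SH library. The logFC was 3.58 (SE 0.58, FDR 0.0257), and it lay between 2.89, without KA replicate 3, and 4.05 when any 1 glial library was left out, with FDR values between 0.0104 and 0.133.

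In neurons Ccl2 was at 1.63, 3.33 and 1.59 CPM in SH and at 4.19, 4.17 and 4.29 CPM in KA. The neuronal groups were also separate, with the KA libraries nearly equal, but the logFC of 0.94 (SE 0.55) did not pass the threshold (FDR 1.0). The difference of the KA effect between glia and neurons was 2.64 on the log2 scale (SE 0.77, unadjusted p = 0.00317 by edgeR's quasi-likelihood test), and its FDR was 1.0. None of the 10 members passed in this test of the difference, and 0.0% of all genes did, while 2 members had an unadjusted p under 0.05 and DESeq2 called 0. Glia and neurons of a replicate came from the same pool, which this test does not use. With the pool as a block the difference for Ccl2 was 2.61 (SE 0.53) with an FDR of 0.0988. With the block, 0.471% of all genes passed in this test.

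Ccl12 (ENSMUSG00000035352), a mouse monocyte attractant closely related to Ccl2, had 11.7, 2.92 and 2.27 CPM in SH glia. In KA glia it had 29.2, 33.7 and 77.1 CPM. The groups did not overlap, although SH replicate 1, a low-input library, was several times above the other SH libraries. The logFC was 3.08 (SE 0.60, FDR 0.0542). Without SH glia replicate 1 it was 4.25, and over the glial libraries left out in turn it lay between 2.50 and 4.25, with FDR values between 0.0105 and 0.247.

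Ccl12 was low in SH neurons, with 8, 6 and 9 counts, or 0.484, 0.253 and 0.367 CPM. In KA neurons it had 15, 45 and 72 counts, or 1.28, 1.56 and 2.92 CPM. Every KA library was above the SH libraries, but only 3 of the 6 neuronal libraries, all of them KA, held 10 counts or more, the least at which a gene was judged. Ccl12 was thus judged in neurons only through the group where it was higher, and its neuronal test is given as a description. The logFC was 2.41 (SE 0.67, FDR 0.407), and with the replicate block it was 2.39 (FDR 0.0650). With the block, Ccl12 and Cxcl12 were the 2 members below an FDR of 0.25 in neurons, and 3.05% of all genes were called in either direction.

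Ccl3 and Ccl4 encode macrophage inflammatory proteins, which attract monocytes and T cells. Their genes are neighbours on chromosome 11, at chr11:83647844-83649355 on the minus strand and chr11:83662584-83664683 on the plus strand. Ccl3 (ENSMUSG00000000982) had 3.46, 19.3 and 0.926 CPM in SH glia. It had 12.1, 14.0 and 45.1 CPM in KA glia. The groups overlapped, because SH replicate 2 was above KA replicates 1 and 2. The logFC was 1.59 (SE 0.95, FDR 1.0), and it was 3.47 (FDR 0.270) without SH glia replicate 2 and 0.72 without KA glia replicate 3.

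Ccl4 (ENSMUSG00000018930) had 7.48, 17.1 and 2.57 CPM in SH glia. It had 22.3, 29.5 and 77.5 CPM in KA glia. All KA libraries were above the SH libraries, and SH replicate 2 was again the highest SH library. The logFC of 2.25 (SE 0.63, FDR 0.281) missed the threshold. It was past the threshold with the replicate block, at 2.29 (FDR 0.0456), and without SH glia replicate 2, at 3.12 (FDR 0.0840), or KA glia replicate 1, at 2.69 (FDR 0.134). It was 1.51 (FDR 0.490) without KA glia replicate 3 and 1.80 (FDR 0.913) without SH glia replicate 3, and the FDR was 1.0 without both low-input libraries.

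In neurons Ccl3 was too low for much to be said. It had 2, 32 and 5 counts in SH and 3, 11 and 39 in KA, the groups overlapped, and the logFC of 0.42 (SE 1.04, FDR 1.0) turned to -0.78 without KA neurons replicate 3 and to -0.02 without SH neurons replicate 1. Ccl4 had 0.847, 0.632 and 0.490 CPM in SH neurons and 1.37, 1.67 and 4.13 CPM in KA neurons. Its neuronal groups did not overlap, with a logFC of 1.89 (SE 0.68, FDR 0.946).

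**Figure D2:**
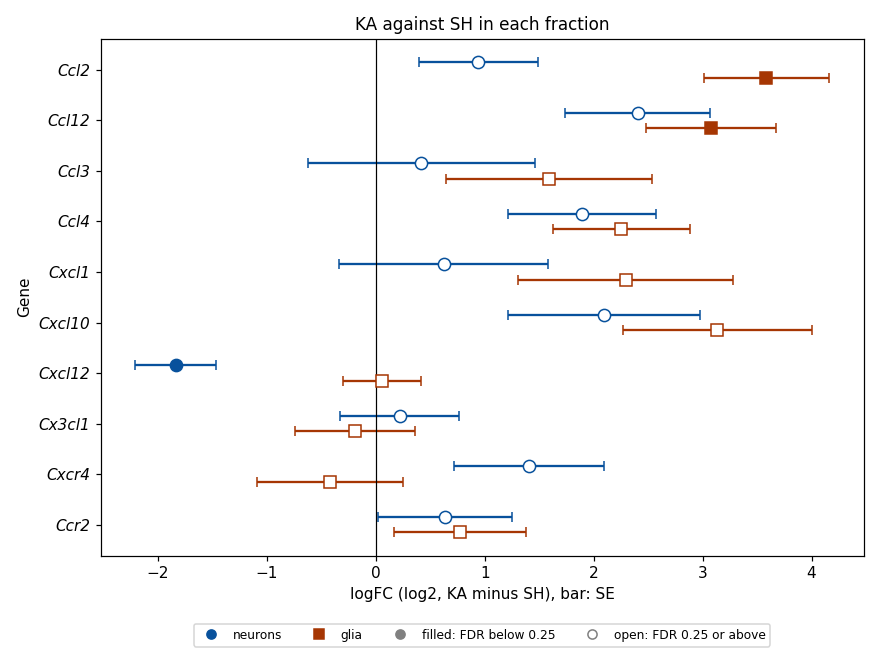
LogFC (log2, KA minus SH) of each gene in neurons (circles) and glia (squares) with its standard error, filled where the FDR was below 0.25. Ccl2 and Ccl12 in glia and Cxcl12 in neurons are filled, and the glial estimates of Ccl3, Ccl4, Cxcl1 and Cxcl10 lie above 0 with wide errors.

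The CXC ligands Cxcl1 and Cxcl10 are both on chromosome 5. Cxcl1 (ENSMUSG00000029380, chr5:90891241-90893115, plus strand), a neutrophil attractant, had 1, 32 and 5 counts in SH glia, or 0.0804, 1.56 and 0.149 CPM. It had 47, 45 and 76 counts in KA glia, or 4.09, 1.72 and 3.13 CPM. The KA libraries were all higher, but SH replicate 2 came close to KA replicate 2. The logFC was 2.30 (SE 0.99, FDR 0.933). It passed the threshold with the replicate block, at 2.98 (FDR 0.103), and without SH glia replicate 2, at 4.55 (FDR 0.130).

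Cxcl10 (ENSMUSG00000034855, chr5:92346638-92348889, minus strand), an attractant of T cells, had 6.91, 4.33 and 0.179 CPM in SH glia. It had 36.9, 29.98 and 31.8 CPM in KA glia. The KA libraries were close to each other and all stood above the SH libraries, which were widely spread, with SH replicate 3 at only 6 counts. The logFC was 3.14 (SE 0.87) with an FDR of 0.274, and with the replicate block it was 3.74 (FDR 0.00756). In the study, which tested fewer genes, Cxcl10 was past the same threshold in glia. The logFC here was 4.06 (FDR 0.273) without SH glia replicate 1 and 2.55 (FDR 0.416) without SH glia replicate 3. With the block, 5 of the 10 members were called higher in KA glia (Ccl2, Ccl12, Ccl4, Cxcl1 and Cxcl10), where 3.47% of all genes were.

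In neurons Cxcl10 had 1.63, 0.632 and 0.123 CPM in SH and 2.22, 2.85 and 4.78 CPM in KA, again without overlap, with a logFC of 2.09 (SE 0.88, FDR 1.0). Cxcl1 had between 0.422 and 1.21 CPM in SH neurons and between 0.972 and 1.28 CPM in KA neurons, which overlapped (logFC 0.62, SE 0.96, FDR 1.0). Exons of Art3 on the other strand cover 5.91% of the exon length of Cxcl10. Reads were counted without regard to strand, so reads there could not be assigned to Cxcl10 or Art3 by their strand.

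Promoters of 8 of the 10 members were found in the RefSeq table for GRCm38.p6, as windows of 250 bases before and 50 bases after the start, and were searched on both strands for motifs of factors known to act on chemokine genes. Those of Ccl2 and Ccl4 were not in that table and were not searched. The 30-base windows printed here are those of Cxcl10 and Cxcl1 that held the ISRE core (GAAANNGAAA, bound by interferon-activated factors) or the kappaB motif (bound by NF-kappaB), with the match in capitals, read 5′ to 3′ on the strand of the gene.
Cxcl10 ISRE core, chr5:92349083-92349112, minus strand: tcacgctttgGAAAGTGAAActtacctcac
Cxcl10 kappaB, chr5:92349029-92349058, minus strand: agaggggagaGGGAAATTCCaagttcatgg
Cxcl10 kappaB, chr5:92348974-92349003, minus strand: tcggtttacaGGGGACTTCCctcgggttgc
Cxcl1 kappaB, chr5:90891164-90891193, plus strand: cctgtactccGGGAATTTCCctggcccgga

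The matches in Cxcl10 began 213, 159 and 104 bases before the start, and the match in Cxcl1 began 71 bases before it. At the last Cxcl10 window and in Cxcl1 a further kappaB match overlapped the printed one, shifted by 1 base. Cxcl10 also held TGANTCA, the AP-1 motif, 74 bases before its start. Of all 32851 promoters in the table, 3.44% held the ISRE core, 8.46% a kappaB match and 7.81% TGANTCA. The other 6 promoters searched, those of Ccl12, Ccl3, Cxcl12, Cx3cl1, Cxcr4 and Ccr2, held none of the 3 in these windows.

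Cxcl12 and its receptor Cxcr4 form a pair that is active in the dentate gyrus. Cxcl12 (ENSMUSG00000061353, chr6:117168535-117181367, plus strand) had 73.9, 30.01 and 47.9 CPM in SH neurons. It had 14.6, 18.5 and 9.36 CPM in KA neurons. The groups did not overlap, and the spread among SH neurons was large. The logFC of -1.84 (SE 0.37, FDR 0.0943) kept its direction without any 1 neuronal library, between -2.10 and -1.46. The call was lost without KA neurons replicate 3 (FDR 0.854), SH neurons replicate 1 (FDR 0.614) or SH neurons replicate 3 (FDR 0.268), and also without KA glia replicate 1 (FDR 0.268) or 2 (FDR 0.326), which share the estimate of spread.

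In glia Cxcl12 had 47.6, 35.6 and 44.7 CPM in SH and 40.4, 40.2 and 52.4 CPM in KA. The glial groups overlapped closely, with a logFC of 0.06 (SE 0.36, FDR 1.0) that turned to -0.04 with no filter on low counts and to -0.09 and -0.06 without KA glia replicate 3 and SH glia replicate 2. The difference of the KA effect between glia and neurons was 1.89 (SE 0.51, unadjusted p = 0.00184 by edgeR's quasi-likelihood test, FDR 1.0). With the pool as a block it was 1.85 (SE 0.37, FDR 0.0988). Endothelial and pericyte cells also express Cxcl12, and the 7 endothelial markers summed to 23.2 to 32.2 CPM in KA neurons against 13.6 to 27.0 CPM in SH neurons, while the 5 pericyte markers summed to 16.9 to 20.6 against 14.4 to 23.5 CPM. Both sums overlapped between KA and SH. They were lowest in replicate 3 of each group, where stray reads were also lowest. Their overlap thus cannot tell whether endothelial or pericyte content changed. Their part in the result was not tested.

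Cxcr4 (ENSMUSG00000045382, chr1:128588199-128592293, minus strand) had 0.847, 0.843 and 0.776 CPM in SH neurons. It had 1.11, 1.32 and 4.09 CPM in KA neurons. The groups did not overlap, but KA replicate 3 was well above the other KA libraries. The logFC of 1.41 (SE 0.69, FDR 1.0) was 0.57 without that library. In glia Cxcr4 had 7.64, 3.07 and 3.68 CPM in SH and 4.78, 1.64 and 4.32 CPM in KA, which overlapped (logFC -0.42, SE 0.67, FDR 1.0). Without SH glia replicate 1 the glial value turned to 0.18.

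Cx3cl1 (ENSMUSG00000031778, chr8:94772009-94782427, plus strand), the membrane-bound ligand made by neurons, had the highest CPM of the members in both neuronal groups. It had 560, 745 and 1076 CPM in SH neurons and 875, 943 and 953 CPM in KA neurons. The groups overlapped, with SH replicate 3 the highest library (logFC 0.22, SE 0.55, FDR 1.0). In glia it had 57.0, 228 and 241 CPM in SH and 68.1, 141 and 251 CPM in KA, with a logFC of -0.19 (SE 0.55, FDR 1.0) that turned to 0.11, 0.04 and 0.10 without KA glia replicate 1, SH glia replicate 2 and SH glia replicate 3. Replicate 1 was the lowest in both glial groups.

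The summed neuronal markers were lowest in the same glial libraries, at 713 CPM in SH replicate 1 and 563 CPM in KA replicate 1, against 996 to 1948 CPM in the other glial libraries. The part of neuronal transcripts in the glial level of Cx3cl1 was not tested.

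Ccr2 (ENSMUSG00000049103, chr9:124101950-124113557, plus strand), the Ccl2 receptor of monocytes, passed the count rule in both fractions but stayed near the level of stray reads. It had 2.60, 3.12 and 0.816 CPM in SH neurons and 4.78, 3.40 and 2.03 CPM in KA neurons. Glial libraries had 6.51, 5.60 and 2.36 CPM in SH and 10.4, 10.0 and 4.24 CPM in KA. Both pairs of groups overlapped, with a logFC of 0.64 (SE 0.62) in neurons and 0.77 (SE 0.61) in glia, both at an FDR of 1.0.

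Per kb of its 6760 bases of exon, Ccr2 was above the 95th percentile of the olfactory receptor genes of the same library in 0 of 6 neuronal libraries and in 2 of 6 glial libraries, 1 SH and 1 KA. Cxcl1 was above that level in 1 neuronal library and in 2 KA glial libraries, and Cxcl10 in 2 neuronal libraries, both KA. Ccl2, Ccl4, Cxcl12 and Cx3cl1 were above it in every library. All 10 members passed the filter on low counts and the count rule in both fractions. By this measure, though, Ccr2 and Cxcl1 in both fractions and Cxcl10 and Ccl3 in neurons were too low to judge firmly, Ccl3 being above it in 2 of 6 neuronal libraries. In neurons Cxcr4 was above it in 1 SH and 2 KA libraries and Ccl12 in 1 SH and 3 KA libraries, and in SH glia Cxcl10 was above it in 2 of 3 libraries.

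**Figure D3:**
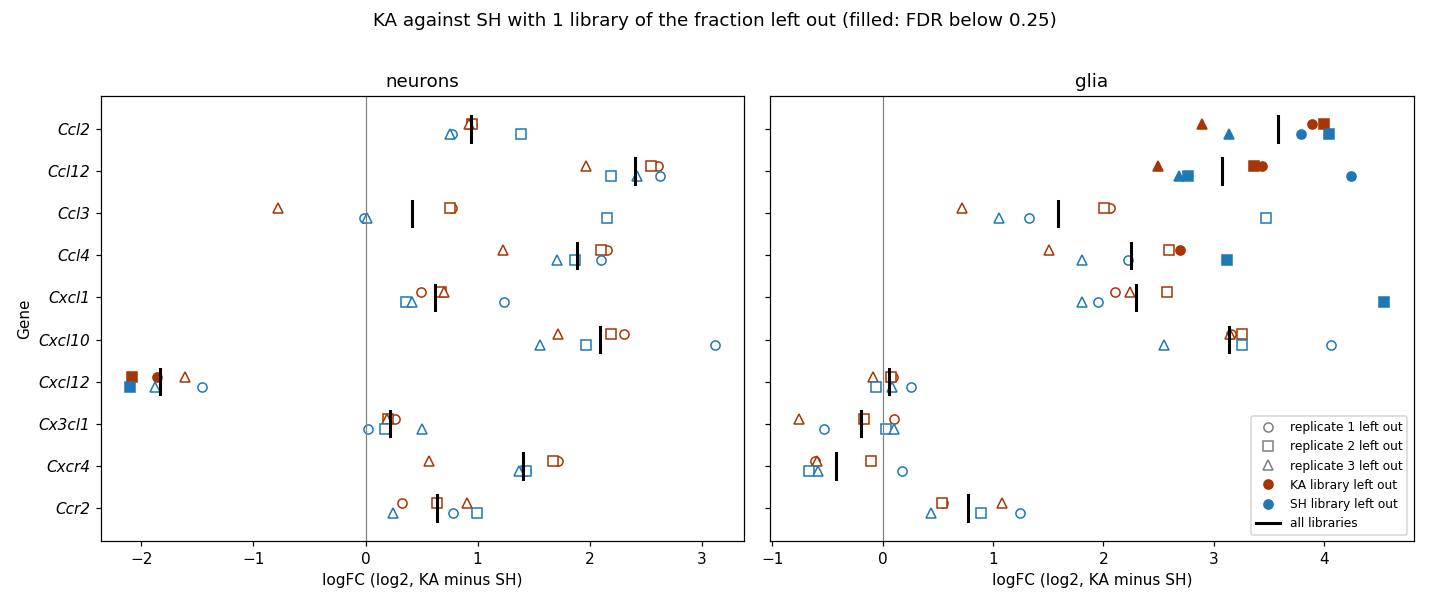
LogFC of KA against SH (log2) in neurons and glia with 1 library of that fraction left out at a time, with the value from all libraries as a black bar and filled symbols where the FDR was below 0.25. Ccl2 and Ccl12 in glia stay filled and above 0 in all 6 fits, while Cxcl1 and Ccl3 in glia move most when SH replicate 2 is left out.

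Across the 10 members, every KA glial library was above every SH glial library for 5 (Ccl2, Ccl12, Ccl4, Cxcl1 and Cxcl10), which held for 3.61% of all genes. In neurons the KA libraries were all above the SH libraries for 5 members (Ccl2, Ccl12, Ccl4, Cxcl10 and Cxcr4), against 5.27% of all genes, and all below for Cxcl12, against 4.45%. The median logFC of the 10 members was 1.92 in glia and 0.79 in neurons, beside medians of 0.14 and 0.00 over all genes tested. The members were picked by name with earlier results known, so these counts are a description.

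The members differed in where they were found, as compared in the same libraries used for KA against SH. In SH, 5 members were higher in glia than in neurons at an FDR below 0.25 (Ccl12, Ccl3, Ccl4, Cxcr4 and Cxcl10), where 7.57% of all genes were called higher in glia. Their logFC values, glia minus neurons, were 3.91 for Ccl12 (SE 0.68, FDR 0.00127), 3.79 for Ccl4 (SE 0.71, FDR 0.00208) and 3.77 for Ccl3 (SE 1.07, FDR 0.0299). Ccl12 had 8, 6 and 9 counts in SH neurons and was judged in SH only through glia, where it was higher. Its SH test is therefore given as a description. Cxcr4 was 2.53 higher (SE 0.71, FDR 0.0286) and Cxcl10 2.27 higher (SE 0.89, FDR 0.137). Cx3cl1 was higher in neurons, at -2.18 (SE 0.57, FDR 0.0193), where 12.3% of all genes were called. The call of Cxcl10 was lost without SH glia replicate 1 (FDR 0.376) or SH neurons replicate 2 (FDR 0.293) or 3 (FDR 0.419) or both low-input libraries (FDR 0.567), that of Ccl3 without SH glia replicate 2 (1.88, FDR 0.299) and that of Cx3cl1 without both low-input libraries (FDR 0.307). Cxcl12 did not pass (-0.25, SE 0.36, FDR 0.868), and its SH groups overlapped, as did those of Ccl3 and Cxcl10.

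After KA, 6 members were called higher in glia (Ccl3, Ccl12, Ccl4, Ccl2, Cxcl10 and Cxcl12), where 6.62% of all genes were. Ccl2 was at 3.77 (SE 0.58, FDR 0.000796) after KA, whereas it had missed the threshold in SH at 1.13 (SE 0.55, FDR 0.266), where 5 of the 12 fits without 1 library put it past the threshold. With the pool as a block it was called in SH as well, at 0.97 (FDR 0.0923). Cxcl12 was at 1.65 (SE 0.37, FDR 0.00735). Cx3cl1 was again higher in neurons, at -2.59 (SE 0.58, FDR 0.00758), where 11.2% of all genes were. Cxcr4 was at 0.71 (SE 0.67, FDR 0.751), and the change of its contrast between treatments did not pass either (-1.83, SE 0.96, FDR 1.0).

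**Figure D4:**
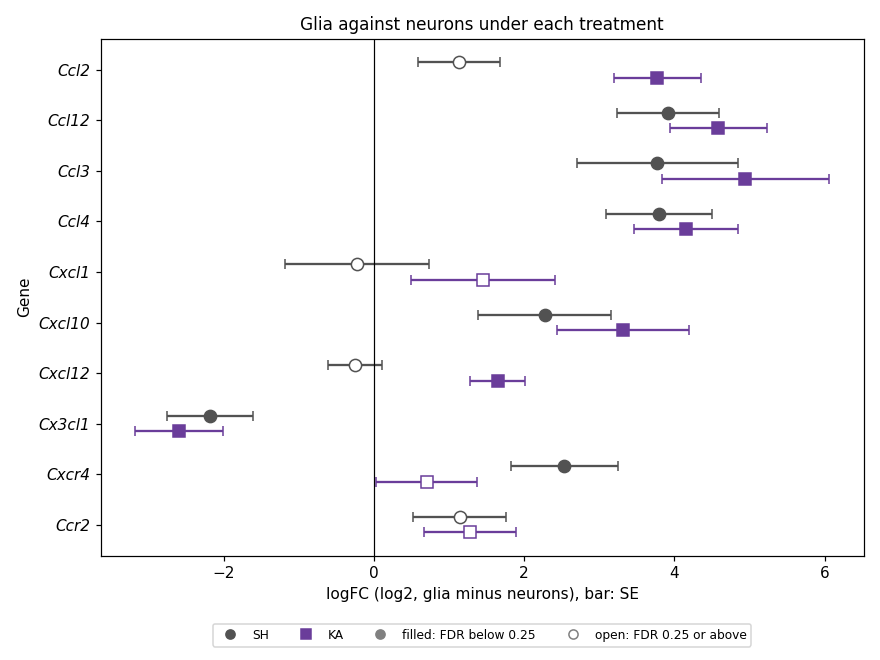
LogFC (log2, glia minus neurons) of each gene in SH (circles) and KA (squares) with its standard error, filled where the FDR was below 0.25. Ccl12, Ccl3 and Ccl4 lie between 3.77 and 4.94 under both treatments, Cx3cl1 lies below 0 under both, and Ccl2 and Cxcl12 are filled in KA alone.

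Compared per kb of exon, Cx3cl1 was far above the other members in neurons, at 202 ± 66.5 CPM per kb in SH and 235 ± 10.8 in KA (SD, n = 3). Cxcl12 came next in SH neurons at 6.19 ± 2.70 CPM per kb. In KA neurons Ccl2, Ccl4 and Ccl12, at 3.70 ± 0.06, 3.62 ± 2.30 and 3.57 ± 1.63 CPM per kb, had higher means than Cxcl12 at 1.73 ± 0.56. The ranges of these CC ligands overlapped each other, and that of Ccl4 also overlapped Cxcl12. In SH glia Cx3cl1 led at 44.6 ± 26.1 CPM per kb, followed by Ccl4 (13.7 ± 11.2), Ccl12 (10.5 ± 9.76) and Ccl3 (10.3 ± 12.98), whose ranges all overlapped.

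In KA glia the order was Ccl12 (86.9 ± 49.3 CPM per kb), Ccl4 (65.3 ± 45.5), Ccl2 (50.7 ± 33.5), Cx3cl1 (39.0 ± 23.4) and Ccl3 (31.0 ± 24.2), and each overlapped the next. Cxcl10 followed at 14.6 ± 1.60 CPM per kb, and its range did not overlap that of Cxcl12 at 5.42 ± 0.86. Cxcr4 (1.98 ± 0.94), Cxcl1 (1.59 ± 0.63) and Ccr2 (1.22 ± 0.51) were lowest.

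The levels of the CC ligands in neurons were set against those in glia. Ccl12 in KA neurons was 4.39%, 4.64% and 3.78% of its CPM in KA glia of the same replicate number. Ccl4 was 6.12%, 5.65% and 5.33%, Ccl3 was 2.12%, 2.73% and 3.51%, and Ccl2 was 9.75%, 14.3% and 4.25%. In SH the shares were wider, from 4.15% to 16.2% for Ccl12, from 3.69% to 19.1% for Ccl4, from 3.50% to 22.0% for Ccl3 and from 29.0% to 105% for Ccl2. The summed microglial markers in KA neurons were 5.84%, 7.95% and 6.59% of those in KA glia, and between 4.38% and 5.42% in SH. In KA the summed oligodendrocyte markers were at 1.34% to 5.54%, those of oligodendrocyte precursors at 6.55% to 12.5% and those of astrocytes at 15.4% to 45.0%. Pericyte markers were at 31.4% to 75.1%, border macrophage markers at 34.2% to 46.2%, blood leukocyte markers at 44.4% to 82.1% and endothelial markers at 51.4% to 120%. The part of glial transcripts in the neuronal levels was not tested. Cxcl12 in KA neurons was 17.9% to 46.0% of its glial level, and 84.2% to 155% in SH.

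**Figure D5:**
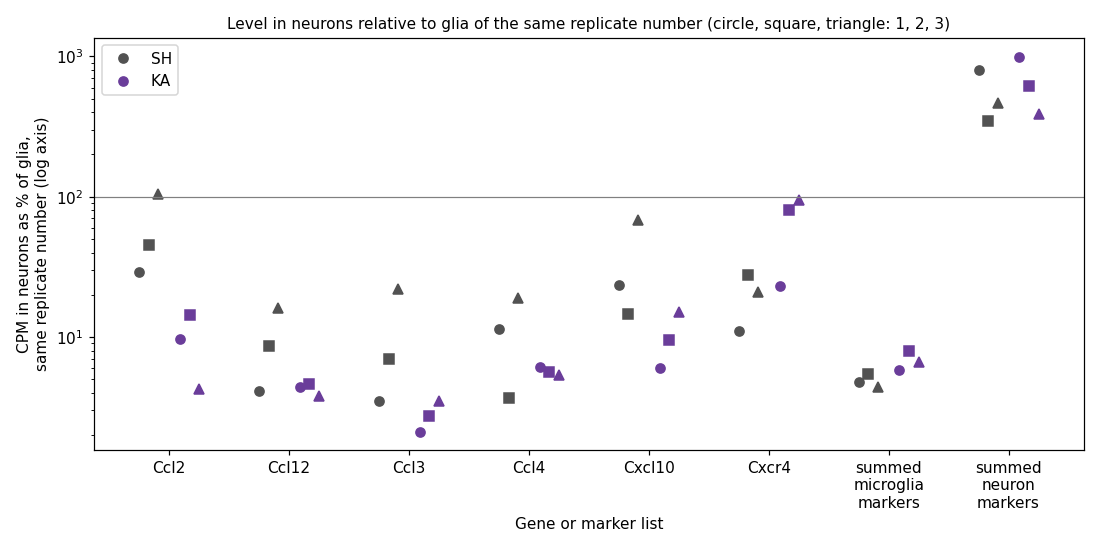
CPM in neurons as a percentage of the CPM in glia of the same replicate number, on a log axis, for 6 genes and for the summed microglial and neuronal markers, with replicates 1, 2 and 3 as circle, square and triangle. In KA, Ccl12, Ccl3 and Ccl4 lie between 2.12% and 6.12%, and the microglial markers at 5.84% to 7.95%. The summed oligodendrocyte markers, not drawn, were at 1.34% to 5.54% in KA.

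Sums of microglial, leukocyte and macrophage markers overlapped between KA and SH glia. The 10 microglial markers summed to 839, 1080 and 1768 CPM in KA glia and to 1833, 1057 and 2457 CPM in SH glia, which overlapped (exact two-sided permutation test, p = 0.30, the smallest possible p being 0.10). Among them the homeostatic genes P2ry12 (logFC -2.38, SE 0.50, FDR 0.0826) and Siglech (logFC -2.18, SE 0.37, FDR 0.0295) fell, and none was called higher. P2ry12 lost its call without KA glia replicate 1 (FDR 0.371), KA glia replicate 2 (FDR 0.503) or SH glia replicate 3 (FDR 0.378), and Siglech without KA glia replicate 2 (FDR 0.256). Without both low-input libraries neither was called (FDR 0.823 and 0.295). With the replicate block 5 of the 10 were called, Gpr34 and Tmem119 also lower and Fcrls higher. Of all 37598 genes, the block called 2871 in glia in either direction. The 10 blood leukocyte markers summed to 8.24 to 35.0 CPM in KA glia against 4.87 to 26.1 CPM in SH glia (p = 0.50 by the same exact test). In both groups this sum was lowest in replicate 3, as were stray reads. Several of these markers lay near the level of stray reads per kb, so the sum cannot tell whether leukocyte content changed. The neutrophil gene S100a8 had 0, 0 and 0 counts in SH glia and 1, 0 and 9 in KA glia. Also among the listed markers, S100a9 had 1, 7 and 0 against 6, 19 and 12, and Ngp had 27, 27 and 1 against 17, 25 and 4. The 6 border macrophage markers summed to 24.4 to 28.1 CPM against 18.7 to 27.4 CPM (exact p = 0.20). Among them Lyve1 was called higher in KA glia with the replicate block, where 3.47% of all genes were.

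The astrocyte, oligodendrocyte and oligodendrocyte precursor (OPC) sums were each lower in every KA glial library than in every SH glial library, by ratios of the means of 0.49, 0.46 and 0.48 (exact p = 0.10 each, the smallest possible). CPM are shares of a library, and in sorted bulk nuclei fewer cells of a type and less RNA per cell cannot be told apart. The part of this shift in the higher chemokine levels was not tested.

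Of the 51 other listed ligands and receptors, 39 could be judged in glia and 38 in neurons. By edgeR's test the only one called was Ccl7, a monocyte attractant, which rose in glia from 0.241, 3.94 and 0.448 CPM to 14.6, 12.4 and 29.2 CPM (logFC 3.59, SE 0.89, FDR 0.180). Its glial groups did not overlap, and SH replicate 2 was the highest SH library, as for Ccl3 and Ccl4. The call was lost without KA glia replicate 3 (FDR 0.345), SH glia replicate 1 (FDR 0.349), SH glia replicate 3 (FDR 0.579) or KA neurons replicate 2 (FDR 0.257), and without both low-input libraries (FDR 0.596). With the replicate block Ccl7 was called in neurons too (FDR 0.234), and Cxcl14 was called lower in glia (FDR 0.00906). DESeq2 also called Cxcl14 lower in glia. The median logFC of the other ligands and receptors judged was 0.46 in glia and 0.15 in neurons. The highest in glia per kb over the 6 libraries were Cx3cr1, the microglial receptor of Cx3cl1 (46.9 CPM per kb), Cxcl14 (18.9) and Ccl7 (12.7). In neurons they were Ccl27a (50.5), Cxcl14 (12.9) and Ackr1 (12.1), of which Ccl27a shares 45.0% of its 50-base words with other genes and Ackr1 overlaps Cadm3.

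Cx3cr1 had 211, 167 and 389 CPM in SH glia and 102, 166 and 233 CPM in KA glia, which overlapped (logFC -0.61, SE 0.51, FDR 1.0). None of the 24 listed receptors was called in either fraction, by edgeR with or without the block or by DESeq2, and 1 of the 21 judged in glia and 0 of the 22 judged in neurons had an unadjusted p under 0.05.

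Of 15 interferon response genes, all judged, 8 rose in glia (Ifit3, Iigp1, Irf7, Oasl2, Mx1, Bst2, Ifit1 and Rsad2), where 0.442% of all genes did. The study had already reported all of these but Rsad2 as higher in glia from the same libraries. The list was chosen with earlier results known, so this count is a description. The median logFC of the 15 was 2.29, beside 0.14 over all genes. Ifit3, an antiviral effector, rose from 5.87, 4.04 and 1.88 CPM to 23.9, 32.8 and 33.5 CPM (logFC 2.95, SE 0.47, FDR 0.0257). Irf7, the transcription factor of the interferon response, rose from 11.7, 4.24 and 6.45 CPM to 27.0, 56.7 and 70.3 CPM (logFC 2.79, SE 0.53, FDR 0.0439). The other 6 had logFC values between 2.20 and 3.39.

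The number called was 5 without KA glia replicate 2, KA glia replicate 3 or SH glia replicate 3, 3 without both low-input libraries and 13 with the replicate block, where 3.47% of all genes were called higher. In neurons none of the 15 was called by edgeR, with a median logFC of 0.37, while 3 had an unadjusted p under 0.05, DESeq2 called 2 (Ifit1 and Irf7) and the block 3 (these and Mx1), all higher. The block called 3.05% of all genes in neurons in either direction. Stat2 was the highest of them per kb in both fractions (24.1 CPM per kb in glia and 23.0 in neurons), followed by Ifit3 (9.74) and Bst2 (9.52) in glia and by Irf9 (6.22) and Irf1 (5.48) in neurons.

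The NF-kappaB and receptor signalling genes showed no call in edgeR's test without the block. None of 13 NF-kappaB genes and targets passed in glia, nor any of the 11 judged in neurons, with median logFC values of 0.45 and 0.52. The unadjusted p was under 0.05 for 0 and 2 of them, DESeq2 called 0, and the block called Il1b in glia and Nfkbie and Rel in neurons, all higher. Nfkbia, the NF-kappaB inhibitor, and Rela, an NF-kappaB subunit, were the highest per kb in both fractions, at 61.6 and 24.7 CPM per kb in glia and 10.9 and 16.6 in neurons, followed by Icam1 in glia (6.79) and Relb in neurons (4.11). None of the 20 receptor signalling genes passed (median logFC -0.03 in glia and -0.01 in neurons). The unadjusted p was under 0.05 for 0 and 2 of them, DESeq2 called 0 and 2 (Elmo1 and Prex1, higher), and the block called 3 in glia (Dock2 higher, Ptk2b and Rac1 lower) and 4 in neurons (Dock2, Elmo1 and Prex1 higher, Arrb2 lower). Of all 37598 genes, the block called 2871 in glia and 1147 (3.05%) in neurons, in either direction. The highest per kb were Gnai2 (43.8), Arrb2 (35.7) and Cdc42 (33.6) in glia and Ptk2b (81.8), Arrb2 (43.1) and Cdc42 (39.8) in neurons.

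The genes whose log2(CPM + 0.5) followed the called members most closely over the 12 libraries were listed as a description, since these libraries share fraction, treatment and depth. For Ccl2 they were Oasl2 (Pearson r = 0.97), Ifi207 (0.97) and Cd300lf (0.97). For Ccl12 they were Klk6 (0.99), Ms4a6d (0.97) and Has2 (0.97). For Cxcl12 they were Clec14a (0.86), Plscr4 (0.85) and Aif1 (0.84).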

How the data were processed

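The authors trimmed reads with Trim Galore 0.4.3, aligned them to mm10 with Rsubread and counted them per gene of GENCODE M16 with featureCounts, without strand. They deposited raw counts for 12 libraries (NeuN+ and NeuN- nuclei, KA and SH). Libraries ran on either of 2 sequencers, and which ran where was not given in the sources used here. The RRBS samples were not analysed here.

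Counts were fitted with edgeR 4.0.16 (R 4.3.3) in 1 quasi-likelihood model of 4 group means with TMM factors, over the 37598 genes with a GENCODE M21 symbol that passed filterByExpr, tested at an FDR of 0.25 after Benjamini-Hochberg adjustment. The fit was tested on simulated data. CPM use TMM-scaled totals, and 3 counts were taken as the floor. Marker sums were compared by exact permutation. Of the 53379 genes, 105 had no symbol.

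A member was called only if 3 of its libraries held 10 counts. All members were named. Of the other chemokine, signalling, NF-kappaB and interferon genes, those past the threshold and the highest 3 per kb were named, as were the 3 genes most correlated with each called member. S100a8, S100a9, Ngp, the microglial markers and some of the list genes called by the replicate block or DESeq2 alone were named besides, after their values were seen. Other list genes called in that way were not named. A withheld item is not reported here. The members and lists were chosen with earlier results of these data known.

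Deviations of same-numbered KA and SH libraries from their group means correlated at 0.44, 0.28 and 0.62 in neurons and 0.50, 0.53 and 0.80 in glia, all above 0.1, so replicate numbers were taken to pair samples. The block for KA against SH was therefore the replicate number within a fraction. For the difference and for glia against neurons the block was the pool, since both fractions came from the same pools. The main fit used neither pairing. The alternatives were other size factors, DESeq2 1.42.0, edgeR's newer quasi-likelihood method, other filters and gene sets, separate fits, the replicate block, each library left out and a stricter threshold. Counts called by DESeq2 are given without the share over all genes and are a description.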

Additional observations from a re-analysis of the deposited data

Results flagged for a closer look

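For 2 members the difference of the KA effect between glia and neurons passed the FDR threshold of 0.25 with the pool as a block. With that block, 0.471% of all genes passed. For Ccl2, which was higher after KA in glia (logFC 3.58) than in neurons (logFC 0.94), the FDR was 0.0988 (edgeR's quasi-likelihood test). For Cxcl12, which was lower after KA in neurons (logFC -1.84) and near 0 in glia (logFC 0.06), the FDR was likewise 0.0988. Without the block neither passed, with unadjusted p-values of 0.00317 and 0.00184 and an FDR of 1.0 each. No outlier test was made, since each group held 3 libraries.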

How the results depend on the processing

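Leaving out 1 library at a time, the members called ranged from 0 to 2 in neurons, 2 to 4 in glia, 5 to 8 for glia against neurons in SH and 7 to 8 in KA, with 0 for the difference in every case. In neurons 2 members, Cxcl12 and Ccl12, passed with DESeq2, with no filter, with protein-coding genes only and with the replicate block. There, 0 passed without both low-input libraries or at an FDR of 0.05. Ccl12 was judged in neurons only through KA, where it was higher, so its passes in neurons are a description. In glia 4 passed with RLE size factors, DESeq2, the newer quasi-likelihood method, no filter or protein-coding genes only, 5 with the replicate block and 1 at an FDR of 0.05. Of all genes, 0.442% were called higher in KA glia in the main fit and 3.47% with the block. For the other settings the share over all genes is not given, so their counts of members are a description in both fractions. For the difference, 2 passed with the block. The block added Ccl12 in neurons, with the limit just given, and Ccl4, Cxcl1 and Cxcl10 in glia. It changed no other member's call of KA against SH. In glia against neurons, it added Ccl2 and Ccr2 in SH and Ccr2 in KA. Ccl2 and Ccl12 in glia stayed below an FDR of 0.25 in all 22 and 21 refits, but at the threshold of 0.05 Ccl12 (FDR 0.0542) was not called.

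Small logFC values changed sign, never with a call. Without single libraries, logFC ranged from -0.78 to 2.16 for Ccl3 in neurons (-0.02 without SH neurons replicate 1), from -0.09 to 0.26 for Cxcl12 in glia (-0.06 without SH replicate 2), from -0.66 to 0.18 for Cxcr4 in glia and from -0.75 to 0.11 for Cx3cl1 in glia (0.04 and 0.10 without SH replicates 2 and 3). Cxcl12 in glia was at -0.041 with no filter, and Cxcr4 in glia at 0.26 without both low-input libraries. The cause was not tested. Counted over all marker lists in both fractions, those with separate KA and SH libraries numbered 3, and 3 to 6 without single libraries. Separation of 3 against 3 libraries has a p of 0.10 by the exact two-sided permutation test. It is easier to reach with 1 library fewer, so these counts are a description. Interferon genes called in glia numbered 8, 5 to 8 without single libraries, 3 without both low-input libraries and 13 with the block, alternatives chosen after seeing the data. At 3 counts as floor, changes of members near 0.1 to 0.3 CPM were not detectable.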
